A study of Homo sapiens with 8 samples.

Results

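The genes described here are 36 genes of glycolysis and of the response to low oxygen, out of 60286 gene rows in a single-cell RNA-seq matrix of human neural cultures. They were chosen by name, as a list of glycolytic enzymes and targets of hypoxia-inducible factor (HIF), and each name was found on 1 row. Of these genes, 16 encode glycolytic enzymes, 3 glucose or lactate transporters, 3 regulators of glycolytic flux, 11 other targets of HIF and 3 the oxygen-sensing loop itself. The rule uses no measured value.

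Flat (2-D) and organoid (3-D) neural cultures were derived from the human embryonic stem cell line H1. The study asked which cells the cultures contain and what dopamine, cocaine and morphine do to their transcripts. Fixed cells were barcoded by repeated splitting and pooling, and the 8 deposited samples are sublibraries of one pool with the same labels, so the group of a cell was read from the culture tag in its name. The matrix held 43693 cells under 46 tags.

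A tag names the format, the arrangement, a treatment and a number. There were 6 tags of 2DMono and 6 of 3DMono, under AcDop, AcMor or Vehic, where the labels speak of untreated cultures. There were 12 tags of 2DCocu and 10 of 3DFusi, under AcCoc, AcMor or Vehic. The letters resemble the drugs named by the study, but the sources used here do not define them, nor Mono, Cocu and Fusi. No source used here gives doses, times or culture ages. Per the labels' protocol, a few organoids were pooled for each dissociation of 3-D cultures. A further 12 tags carried the word Proto, a protocol name and no treatment: 2DProto2Fjo, 2DProto3Wu and 2DProto4Nic with 2 tags each, and 3DProto1For and 3DProto2Xia with 3 each. All cells come from 1 line, and nothing says that tags are separate cultures, so every p-value below measures the spread between tags, which may be technical.

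Glycolysis splits glucose into pyruvate, which either enters the mitochondria or is turned into lactate. When oxygen is plentiful, prolyl hydroxylases of the EGLN family mark the HIF alpha subunits for destruction. When oxygen is scarce the subunits persist, pair with ARNT and raise the transcription of glycolytic enzymes, glucose transporters, angiogenic factors and the EGLN genes themselves. HIF1A is controlled mainly through the stability of its protein, which RNA does not show. Organoids have no blood vessels, and their inner cells are known to meet low oxygen.

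HIF binds DNA at a short core motif, ACGTG or GCGTG, so the 200 bases before the start of a gene are printed for 5 members on which the comparisons below turn. Capitals mark a core motif on either strand, where CACGT and CACGC are the same motifs read on the other strand. The windows are from RefSeq (GRCh38.p14) and run 5′ to 3′ on the gene's strand: CA9 at chr9:35673728-35673927 (plus strand), ADM at chr11:10304873-10305072 (plus), ANKRD37 at chr4:185396641-185396840 (plus), HK2 at chr2:74833927-74834126 (plus, the first of 2 windows) and SLC2A1 at chr1:42958869-42959068 (minus).
CA9: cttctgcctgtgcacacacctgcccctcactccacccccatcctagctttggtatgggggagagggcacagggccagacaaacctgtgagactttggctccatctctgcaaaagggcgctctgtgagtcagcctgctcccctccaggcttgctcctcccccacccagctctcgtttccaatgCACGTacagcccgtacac
ADM: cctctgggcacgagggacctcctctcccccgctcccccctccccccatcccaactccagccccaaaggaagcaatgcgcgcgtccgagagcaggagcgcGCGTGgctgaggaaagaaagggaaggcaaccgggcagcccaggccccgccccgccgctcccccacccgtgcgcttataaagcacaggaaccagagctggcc
ANKRD37: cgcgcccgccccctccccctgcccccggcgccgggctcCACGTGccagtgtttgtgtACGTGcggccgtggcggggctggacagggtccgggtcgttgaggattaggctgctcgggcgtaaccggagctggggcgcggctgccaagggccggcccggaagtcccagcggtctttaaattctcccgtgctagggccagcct
HK2: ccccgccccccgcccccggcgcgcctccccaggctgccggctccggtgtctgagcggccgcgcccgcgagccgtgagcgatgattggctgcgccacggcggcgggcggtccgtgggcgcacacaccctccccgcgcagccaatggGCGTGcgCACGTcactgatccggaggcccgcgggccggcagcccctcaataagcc
SLC2A1: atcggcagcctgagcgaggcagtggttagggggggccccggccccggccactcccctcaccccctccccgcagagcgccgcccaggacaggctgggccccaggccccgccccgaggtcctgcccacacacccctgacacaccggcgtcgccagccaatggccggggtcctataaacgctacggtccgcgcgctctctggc

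The core motif was common in promoters of all kinds. Over the 250 bases before each start, 36 of 60 windows of the members (60%) held ACGTG or GCGTG on either strand, against 15172 of 35116 windows (43.2%) of all genes and 50.95% of the windows of genes tested in the Proto comparison below. The motif ACGTG alone was in 38.3% of the members' windows, 18.5% of all windows and 20.9% of those of the tested genes. The printed CA9 window has 1 match, 18 bases before the start, and that of ADM has 1, while ANKRD37 has 3, where CACGTG counts on both strands. The SLC2A1 window has 0 matches, which says only that these letters are not in this stretch. Windows were given for 32 members and not for BNIP3L, NDRG1, SLC2A3 and VEGFA.

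Before the comparisons, 3 facts on the tags bear on the members. Ribosomal protein genes took a small and uneven share of all counts, 0.0745% to 0.119% in 2DMono (median 0.0866%), 0.0865% to 0.265% in 3DMono (0.142%), 0.0779% to 0.11% in 2DCocu (0.0882%) and 0.0883% to 0.331% in 3DFusi (0.190%). Clusters named from marker genes were unevenly spread: the median share of neuron-like cells was 51.6% in 2DMono, 38.9% in 3DMono, 28.0% in 2DCocu and 28.7% in 3DFusi. The median share of mesenchymal-like cells was 1.34%, 5.50%, 5.21% and 15.8% in the same order, and that of astrocyte-like cells 6.09%, 0%, 10.1% and 0%. Another 12652 cells (29.0%) had no name. Their share by tag was 11.5% to 37.4% in 2DMono, 11.4% to 15.6% in 3DMono, 37.1% to 61.5% in 2DCocu and 6.83% to 33.2% in 3DFusi. In counts summed over a tag, a change in the number of cells of a type and a change of RNA per cell cannot be told apart. The summed level of all members was nearly the same in the 4 arrangements, with medians of 1292 CPM (counts per 1000000 counts) in 2DMono, 1260 in 3DMono, 1337 in 2DCocu and 1264 in 3DFusi. In every tag the enzyme gene GAPDH (9.19 to 87.2 CPM) lay below the histone demethylase gene KDM3A (79.2 to 191 CPM). CPM here are shares of the deposited counts, and how well they stand for RNA levels in the cells was not tested.

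Comparing 3DMono with 2DMono asks how the members differ between organoids and flat cultures with the same treatments. The list did not move as a block. The glucose transporter SLC2A1 (GLUT1) and the hexokinases HK1 and HK2, which trap glucose in the cell, fell in 3-D, as did the platelet-type phosphofructokinase PFKP and HIF1A itself. Triose phosphate isomerase TPI1, neuronal enolase ENO2, pyruvate dehydrogenase kinase PDK1, the mitophagy receptors BNIP3 and BNIP3L and the stress-induced mTOR inhibitor DDIT4 rose. In edgeR's quasi-likelihood test, 20 of the 36 members passed (adjusted p, by Benjamini-Hochberg, under 0.05). Of these, 10 were higher in 3-D and 10 lower, against 38% of all genes tested. The median log2 difference was 0.17 over the members and 0.03 over all genes tested.

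SLC2A1 had 9.09, 13.5 and 19.0 CPM (lowest, median and highest of 6 tags) in 3DMono and 33.8, 41.6 and 67.2 in 2DMono. Its log2 difference was -1.86 ± 0.24 (SE, edgeR adjusted p = 4.2e-05), and no 3-D tag reached the lowest 2-D tag. HK2, the inducible hexokinase, had 7.64, 16.5 and 23.4 CPM against 35.0, 43.2 and 59.2 (log2 -1.67 ± 0.27, edgeR adjusted p = 0.000312). HK1, the hexokinase found in most cells, had 41.7, 51.2 and 59.8 CPM against 76.3, 99.7 and 121.7 (log2 -1.13 ± 0.12, edgeR adjusted p = 4.14e-06). Both hexokinases were thus lower in every 3-D tag than in any 2-D tag. PFKP followed them, with 26.5, 42.7 and 62.3 CPM against 69.9, 84.3 and 140.5 and a log2 difference of -1.15 ± 0.21. PFKFB3, which makes the activator of phosphofructokinase, fell by 0.83 on the log2 scale with overlapping tags, from a median of 106.1 to 61.9 CPM.

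Among hypoxia targets, the collagen prolyl hydroxylase P4HA2 had 5.70, 9.72 and 14.2 CPM in 3DMono and 15.7, 22.6 and 43.6 in 2DMono (log2 -1.61 ± 0.25). The vasodilator peptide gene ADM had 0.507, 0.987 and 1.76 CPM against 1.96, 2.50 and 5.11 (log2 -1.72 ± 0.31, edgeR adjusted p = 0.000492). Neither gene overlapped between formats. P4HA1, its paralog, went the other way, with 69.0, 91.3 and 119.8 CPM against 41, 56.1 and 58.4 (log2 0.60 ± 0.10, edgeR adjusted p = 0.000214), again without overlap. HIF1A had 55.3, 65.3 and 70.9 CPM against 90.3, 98.8 and 122.4 (log2 -0.84 ± 0.11, edgeR adjusted p = 2.47e-05). EGLN3, a prolyl hydroxylase that HIF induces, fell by 0.41 on the log2 scale.

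DDIT4 was higher in every 3-D tag, with 2.42, 6.29 and 10.2 CPM against 0.995, 2.04 and 2.29 (log2 1.59 ± 0.34, edgeR adjusted p = 0.00239). PDK1, which turns pyruvate away from the mitochondria, had 21.9, 29.1 and 51.0 CPM against 14.3, 17.3 and 21.6 (log2 0.69 ± 0.20), and ENO2 had 20.8, 30.4 and 44.3 against 11.1, 18.7 and 20.5 (log2 0.70 ± 0.19). These 3 genes did not overlap between formats. The remaining genes named as higher overlapped: TPI1 (log2 1.11 ± 0.29), PFKFB4 (0.75 ± 0.21), BNIP3 (0.65 ± 0.22) and aldolase C, ALDOC (1.86 ± 0.52), whose medians were only 1.00 and 0.259 CPM. BNIP3 lost its call in 6 of 12 fits that left out 1 tag (edgeR adjusted p up to 0.0927), and counts on its processed copies elsewhere in the genome were 11% of gene and copies together, so its split between loci is uncertain. BNIP3L also overlapped, with 67.6 to 128.8 CPM in 3DMono and 47.0 to 68.0 in 2DMono. It lost its call in 7 of 12 fits that left out 1 tag (edgeR adjusted p up to 0.0694). The classical hypoxia genes VEGFA (log2 -0.38), CA9 (0.03), NDRG1 (0.07) and LDHA (0.45) and the enzymes GAPDH (0.40) and PGK1 (-0.01) did not pass the test, nor did the glucose transporter SLC2A3 (-0.08).

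**Figure D1:**
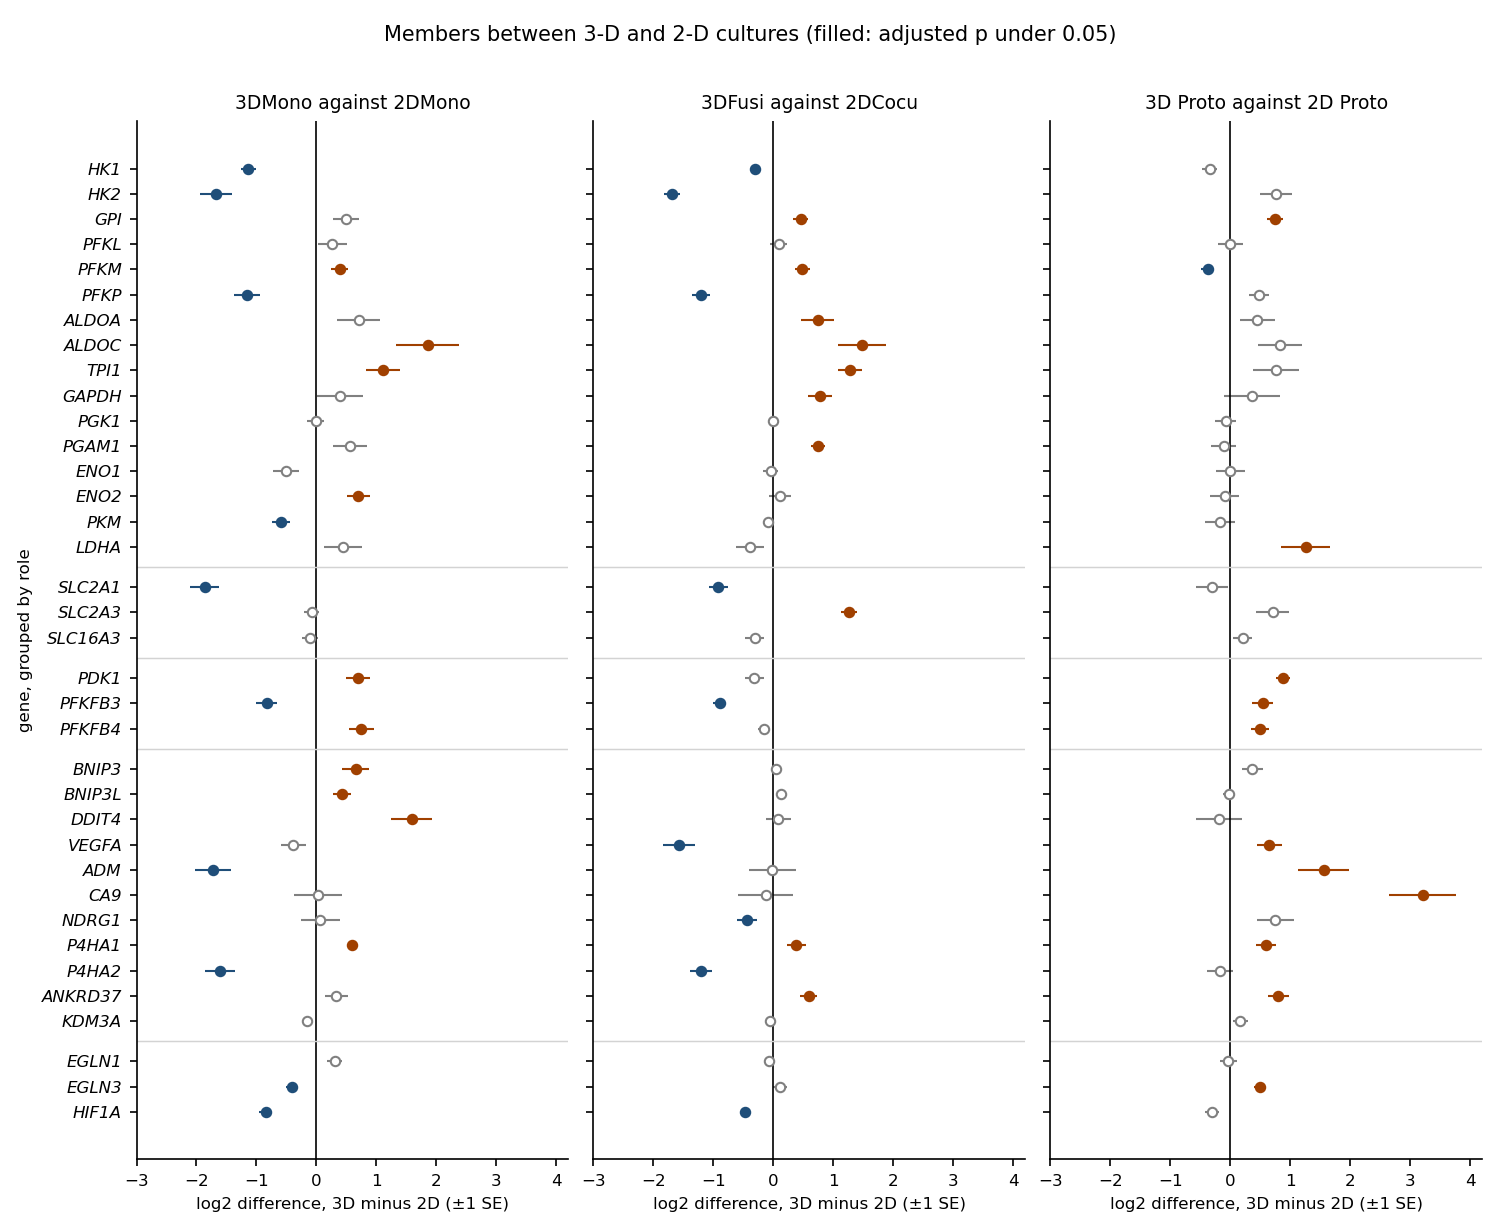
Log2 difference between 3-D and 2-D tags with ±1 SE (x axis) for the 36 members, grouped by role (y axis), in 3DMono against 2DMono, 3DFusi against 2DCocu and 3D Proto against 2D Proto. Filled points passed an edgeR adjusted p of 0.05, blue lower and orange higher in 3-D. HK2 is at -1.67 and -1.69 in the first 2 panels, and CA9 at 3.21 in the last.

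Other genes of the same pathways, from lists of genes that are not members, also went both ways in 3DMono against 2DMono, where 38% of all genes were called. Of 26 other HIF targets, 5 rose and 9 fell (median log2 -0.16), among the latter the collagen cross-linker LOX (32.0 ± 6.5 CPM in 2DMono and 4.45 ± 1.61 in 3DMono, SD, n = 6 each) and the repressor BHLHE40 (16.1 ± 3.33 and 3.79 ± 1.39). Of 8 other HIF pathway genes, ARNT2, the neuronal partner of HIF alpha, fell (log2 -0.81) and HIF3A rose (0.68). Of 18 other glycolysis genes tested, 3 rose and 4 fell, with the hexokinase HK3 going from 1.82 ± 0.898 to 9.42 ± 3.79 CPM (log2 2.20, edgeR adjusted p = 0.000292), and of 23 genes of the citric acid cycle and pyruvate entry 0 rose and 2 fell, SUCLG2 and SUCLA2, subunits of succinyl-CoA ligase. In the pentose phosphate pathway 1 of 7 genes changed, transketolase TKT (log2 -0.49). Of 11 genes of the ER and integrated stress responses, 5 rose and 1 fell, with DDIT3 at 0.73 and the chaperone HSPA5 at -0.94.

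The comparison of 3DFusi with 2DCocu asks the same of another pair of arrangements, which shares no tag with the first. HK2, PFKP, SLC2A1, PFKFB3, P4HA2 and HIF1A fell there too, and VEGFA, the main angiogenic growth factor, fell as well. The neuronal glucose transporter SLC2A3 (GLUT3) rose, together with 7 glycolytic enzymes. In neuron-like cells alone SLC2A3 did not pass in this pair. In edgeR, 19 of 36 members passed, 10 higher and 9 lower in 3-D, against 48.8% of all genes tested. The median log2 difference was -0.03 over the members and 0.05 over all genes tested. With the tag number as a block 17 members passed (46.6% of all genes), 8 of them higher. ALDOA and P4HA1 lost the call (edgeR adjusted p = 0.065 and 0.0947, 3DFusi against 2DCocu).

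HK2 had 8.15, 10.8 and 17.1 CPM (lowest, median and highest of 10 tags) in 3DFusi and 26.5, 33.7 and 49.5 in the 12 tags of 2DCocu (log2 -1.69 ± 0.13, edgeR adjusted p = 7.09e-10). PFKP had 29.6, 45.4 and 75.0 CPM against 85.1, 96.6 and 145.1 (log2 -1.21 ± 0.15), and PFKFB3 had 38.8, 62.5 and 74.8 against 79.0, 104.9 and 129.4 (log2 -0.90 ± 0.11). None of these 3 genes overlapped between formats. The other falls came with some overlap: VEGFA had a median of 49.4 CPM against 140.1 (log2 -1.57 ± 0.26, edgeR adjusted p = 3.7e-05), P4HA2 15.0 against 33.1 (-1.21 ± 0.19), SLC2A1 17.4 against 30.6 (-0.92 ± 0.16) and HIF1A 65.0 against 89.2 (-0.48 ± 0.08). NDRG1, a stress-induced gene named for its regulation by N-myc, fell by 0.44, and 8 of 22 fits without 1 tag lost this call (edgeR adjusted p up to 0.0664).

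SLC2A3 had 23, 46.5 and 63.4 CPM in 3DFusi and 14.3, 18.1 and 24.7 in 2DCocu (log2 1.26 ± 0.13, edgeR adjusted p = 7.45e-08), so only the lowest 3-D tag lay within the 2-D range. Phosphoglycerate mutase PGAM1 had 11.2, 14.6 and 20.1 CPM against 6.23, 8.66 and 11 (log2 0.75 ± 0.12), with no overlap. The other enzymes that rose overlapped between formats, among them TPI1 (median 21.5 against 9.47 CPM, log2 1.28 ± 0.20), GAPDH (43.5 against 21.7, 0.78 ± 0.20), aldolase A, ALDOA (15.2 against 9.05, 0.74 ± 0.27) and muscle-type phosphofructokinase PFKM (23.8 against 15.6, 0.49 ± 0.13). ALDOC had 0.766 against 0.338 CPM at the median, a low level on which its log2 difference of 1.47 ± 0.40 rests. ANKRD37, a small ankyrin-repeat gene induced by HIF, rose by 0.59 ± 0.14 with medians of 3.73 and 2.29 CPM. Counts on processed copies of PGAM1 and GAPDH elsewhere in the genome made up 21.9% and 3.1% of the gene and its copies together, so their split between loci is uncertain.

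In the other lists of this pair, 3 of 26 other HIF targets rose and 9 fell (median log2 -0.22), a share near the 48.8% of all genes called. BHLHE40 fell again (-1.24), and the hormone gene STC1 rose (1.56). The von Hippel-Lindau gene VHL, which marks hydroxylated HIF for destruction, rose (log2 0.83), and ARNT fell by 0.35. Of 19 other glycolysis genes 7 rose and 4 fell, of 23 citric acid cycle genes 3 rose and 2 fell, and of 7 pentose phosphate genes 0 rose and 3 fell, led by TKT (-0.76). Stress genes rose in 6 of 11 cases and fell in 1, with ATF4 at 1.13.

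**Figure D2:**
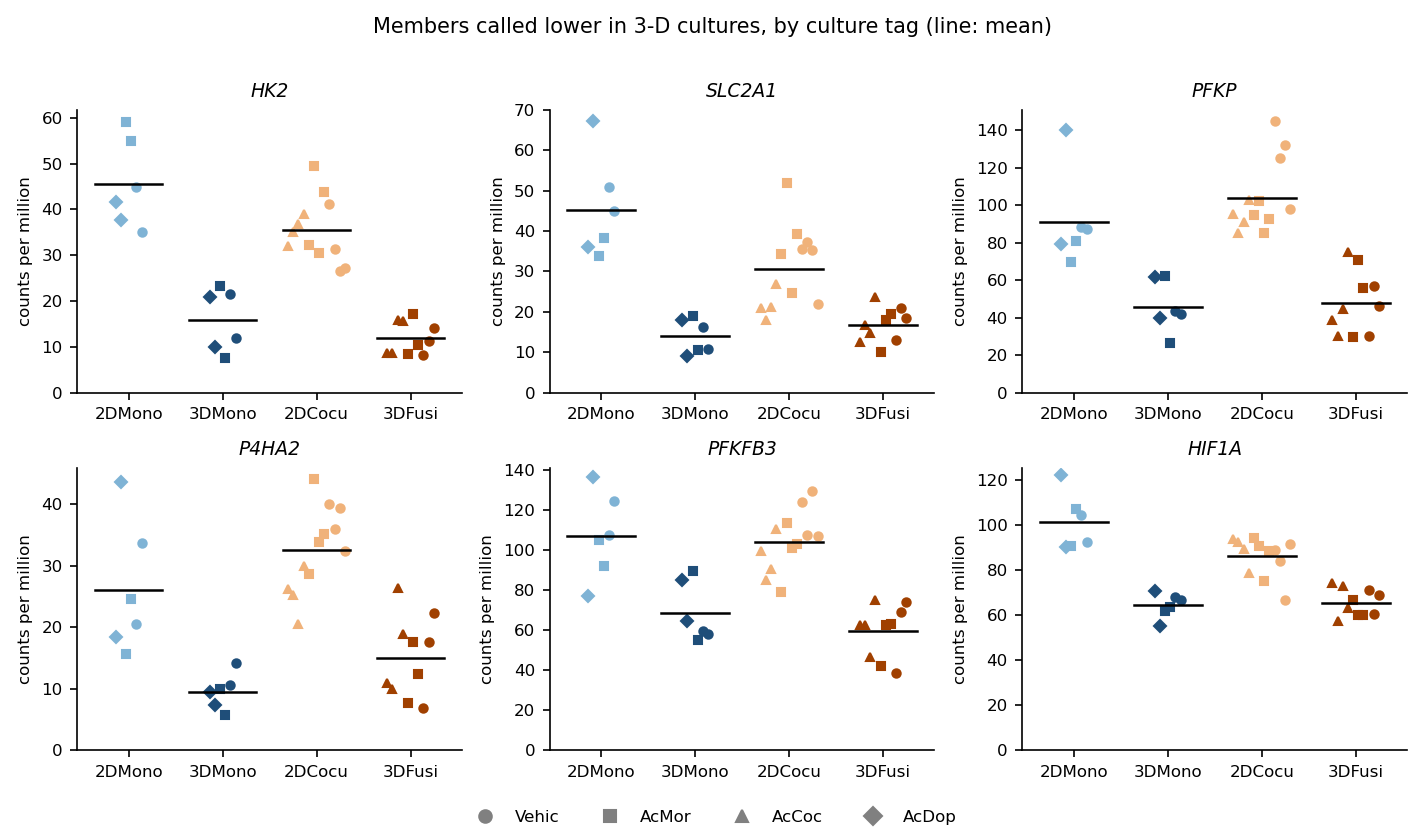
CPM of HK2, SLC2A1, PFKP, P4HA2, PFKFB3 and HIF1A (y axes) in each tag of 2DMono, 3DMono, 2DCocu and 3DFusi (x axis), with a line at the group mean and the marker shape giving the treatment. For HK2 the 3-D tags lie between 7.64 and 23.4 CPM and the 2-D tags between 26.5 and 59.2.

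The tags with the lowest and highest shares of counts on ribosomal protein genes also differed in enzyme levels. In 3DFusi the tag with the lowest such share (AcCoc number 2, 0.0883%) had 7.14 CPM of TPI1 and 19.5 of GAPDH, and the tag with the highest (AcCoc number 3, 0.331%, with 50.9% mesenchymal-like cells) had 35.6 and 64.4. The tags between them did not follow this order: Vehic number 1, at 0.261%, had 18.2 CPM of TPI1, and Vehic number 4, at 0.157%, had 27.9. In 3DMono the lowest share (AcMor number 2, 0.0865%) came with 10.3 CPM of TPI1 and the highest (Vehic number 1, 0.265%) with 35.7. A fit with this share as covariate, chosen after seeing the data, therefore stands beside the comparisons.

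With that covariate edgeR called 11 members in 3DMono against 2DMono (21.9% of all genes), of which 10 were lower, among them HK2 (log2 -2.48), SLC2A1 (-2.16), PFKP (-1.39), HK1 (-1.18) and HIF1A (-0.96). P4HA1 was the only member higher (0.54). In 3DFusi against 2DCocu it called 10 members (15.8% of all genes), 9 of them lower, among them HK2 (-1.76), VEGFA (-1.62), P4HA2 (-1.40) and PFKP (-1.13), and 1 higher, SLC2A3 (0.81). No glycolytic enzyme that had risen in 3-D was called higher in these fits, and GAPDH (log2 -0.27 in 3DFusi against 2DCocu) and BNIP3 (-0.041 in 3DMono against 2DMono) changed sign. What sets the ribosomal share was not tested. The share largely went with format. Only 3DMono AcMor number 2 (0.0865%) and 3DFusi AcCoc number 2 (0.0883%) lay within the 2-D range of their pair. Lost calls and changed signs in these fits therefore cannot be assigned to the share or to the format.

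**Figure D3:**
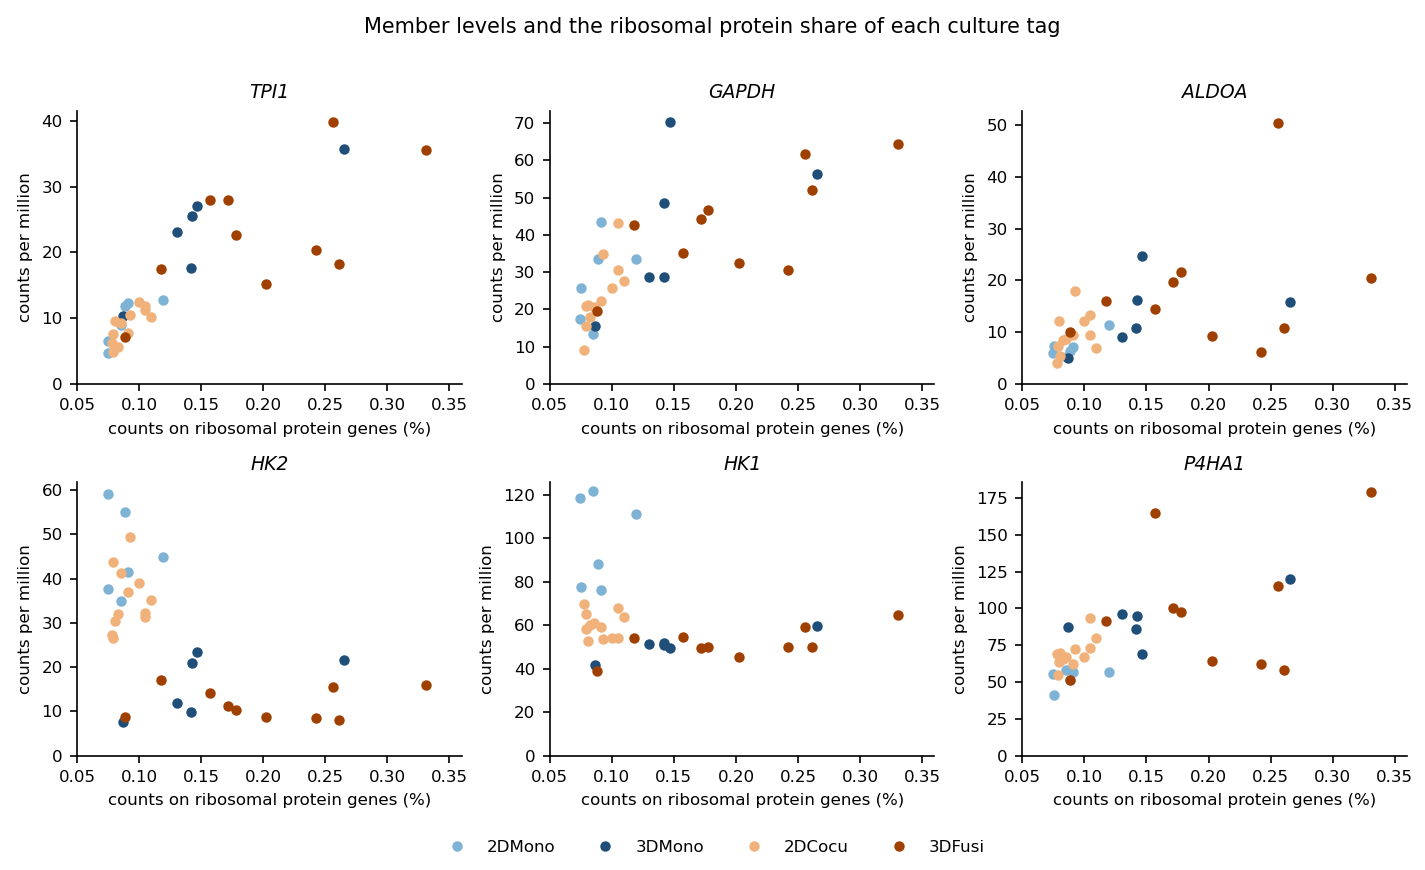
CPM of TPI1, GAPDH, ALDOA, HK2, HK1 and P4HA1 (y axes) against the percent of a tag's counts on ribosomal protein genes (x axis), 1 point per tag of the 4 treated arrangements. In 3DFusi TPI1 goes from 7.14 CPM at 0.0883% to 35.6 CPM at 0.331%, while HK2 lies at 7.64 to 23.4 CPM in the 3-D and 26.5 to 59.2 in the 2-D tags.

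Cell make-up differed between formats beside these results. Summed over the mesenchymal marker list, medians were 984 CPM in 2DMono, 332 in 3DMono, 1088 in 2DCocu and 1292 in 3DFusi. Leaving out mesenchymal-, choroid plexus- and muscle-like cells gave 21 members called in 3DMono against 2DMono (41% of all genes) and 21 in 3DFusi against 2DCocu (51.5%). In the second pair 8 were then higher and 13 lower, with HK2 at -1.93, VEGFA at -1.83, P4HA2 at -1.85 and SLC2A3 at 1.12. The cells were left out by cluster name. The marker sum was higher in 2DMono than in 3DMono, although the median share of mesenchymal-like cells was lower. Such fits cannot remove mesenchymal marker RNA in cells that they keep, among them the cells without a name. Using the 2 Vehic tags a side alone left 9 members called in 3DMono against 2DMono (14.4% of all genes). Scaling by library size without TMM gave 24 (44.4%), 15 higher and 9 lower, with the median of all genes at 0.22.

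Whether the format effect differed between the pairs of arrangements was tested as an interaction on the Vehic and AcMor tags. The interaction passed for 4 of 36 members, against 9.98% of all genes. HK1 fell less in 3DFusi against 2DCocu (log2 -0.31 over all tags) than in 3DMono against 2DMono (-1.13), and the interaction was 0.81 ± 0.16 (edgeR adjusted p = 0.00182). SLC2A3 rose in the first pair (1.26) and not in the second (-0.08), with an interaction of 1.32 ± 0.25 (edgeR adjusted p = 0.00128). PDK1 (-1.11 ± 0.33) and DDIT4 (-1.66 ± 0.52) went the other way, but lost the call in 8 and 14 of 22 fits without 1 tag. The count fell to 2 members, HK1 and SLC2A3, without AcMor number 2 or Vehic number 2 of 2DCocu, either AcMor tag of 2DMono, AcMor number 4 of 3DFusi, or AcMor number 1 or Vehic number 1 of 3DMono, in fits that called 7.5% to 8.83% of all genes.

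The Proto tags gave another comparison of formats, which shares no tag with the others and in which tags are nested in protocols. No protocol occurred in both formats, so format and protocol cannot be told apart. The fit had a coefficient per protocol. Its SE and p-values therefore measure the spread between tags of the same protocol, not between protocols. Carbonic anhydrase CA9, a surface enzyme widely used as a mark of hypoxic tissue, rose, as did ADM, ANKRD37, VEGFA and P4HA1 and all 3 flux regulators, PDK1, PFKFB3 and PFKFB4. LDHA, which makes lactate, and EGLN3 rose too. In edgeR, 12 of 36 members passed, 11 higher and 1 lower in 3-D, against 24.3% of all genes. The median log2 difference was 0.41 over the members and 0.05 over all genes tested. By role, 5 of 11 hypoxia targets, 3 of 3 flux regulators, 2 of 16 enzymes, 1 of 3 oxygen-sensing genes and 0 of 3 transporters were higher.

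The 6 3-D tags were unlike each other, and their make-up did not follow their protocol. In 3DProto1For, tags 1 and 2 held 29.3% and 41.9% mesenchymal-like and 4.48% and 10.2% muscle-like cells, while tag 3 held 0% of both. In 3DProto2Xia, tag 2 held 21.3% and 19.9%, while tags 1 and 3 held 0% of both and 33.1% and 29.9% GABAergic neuron-like cells. Of the 2-D tags, those of 2DProto3Wu held 65.3% GABAergic neuron-like cells. The part of this make-up in the results was not tested.

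CA9 had 1.47, 2.74 and 0.276 CPM in 3DProto1For tags 1 to 3 and 0.369, 2.06 and 0.732 in 3DProto2Xia tags 1 to 3, against 0.0354 to 0.306 in the 6 2-D tags. Its log2 difference was 3.21 ± 0.56 (edgeR adjusted p = 0.00262). The 3 highest values are those of the 3 tags with mesenchymal- and muscle-like cells, and tag 3 of 3DProto1For lay within the 2-D range. ADM had 4.42, 5.07 and 0.552 CPM in 3DProto1For and 0.527, 2.18 and 1.21 in 3DProto2Xia, against 0.386 to 1.32 in 2-D (log2 1.56 ± 0.42, edgeR adjusted p = 0.022). LDHA had 8.10, 19.7 and 5.10 CPM and 2.53, 11.3 and 6.33, against 1.62 to 5.06 in 2-D (log2 1.26 ± 0.41, edgeR adjusted p = 0.0473). The same 3 tags were highest for ADM, LDHA and P4HA1, and CA9, ADM and LDHA overlapped between formats through the others.

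ANKRD37 and PDK1 were more even. ANKRD37 had 8.24, 5.27 and 5.02 CPM in 3DProto1For and 6.45, 5.6 and 6.16 in 3DProto2Xia, against 1.67 to 5.00 in 2-D, with no overlap (log2 0.80 ± 0.18, edgeR adjusted p = 0.00803). PDK1 had 45.5 to 63.9 CPM against 16.1 to 56.7 (log2 0.88 ± 0.12, edgeR adjusted p = 0.000654), and the 2 tags of 2DProto3Wu, at 46.3 and 56.7, were the only 2-D tags within the 3-D range. Glucose-6-phosphate isomerase GPI had 50.1 to 81.0 CPM against 25.3 to 56.4 (log2 0.74 ± 0.13). VEGFA rose by 0.65 ± 0.21, P4HA1 by 0.60 ± 0.17, PFKFB3 by 0.54, PFKFB4 by 0.50 and EGLN3 by 0.49. PFKM was the 1 member lower (log2 -0.37 ± 0.11). HK2 (0.77) and SLC2A3 (0.71) did not pass. HK2, which fell in 3DMono and 3DFusi, had 11.8 to 60.6 CPM in the 3-D and 6.64 to 29.2 in the 2-D Proto tags.

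**Figure D4:**
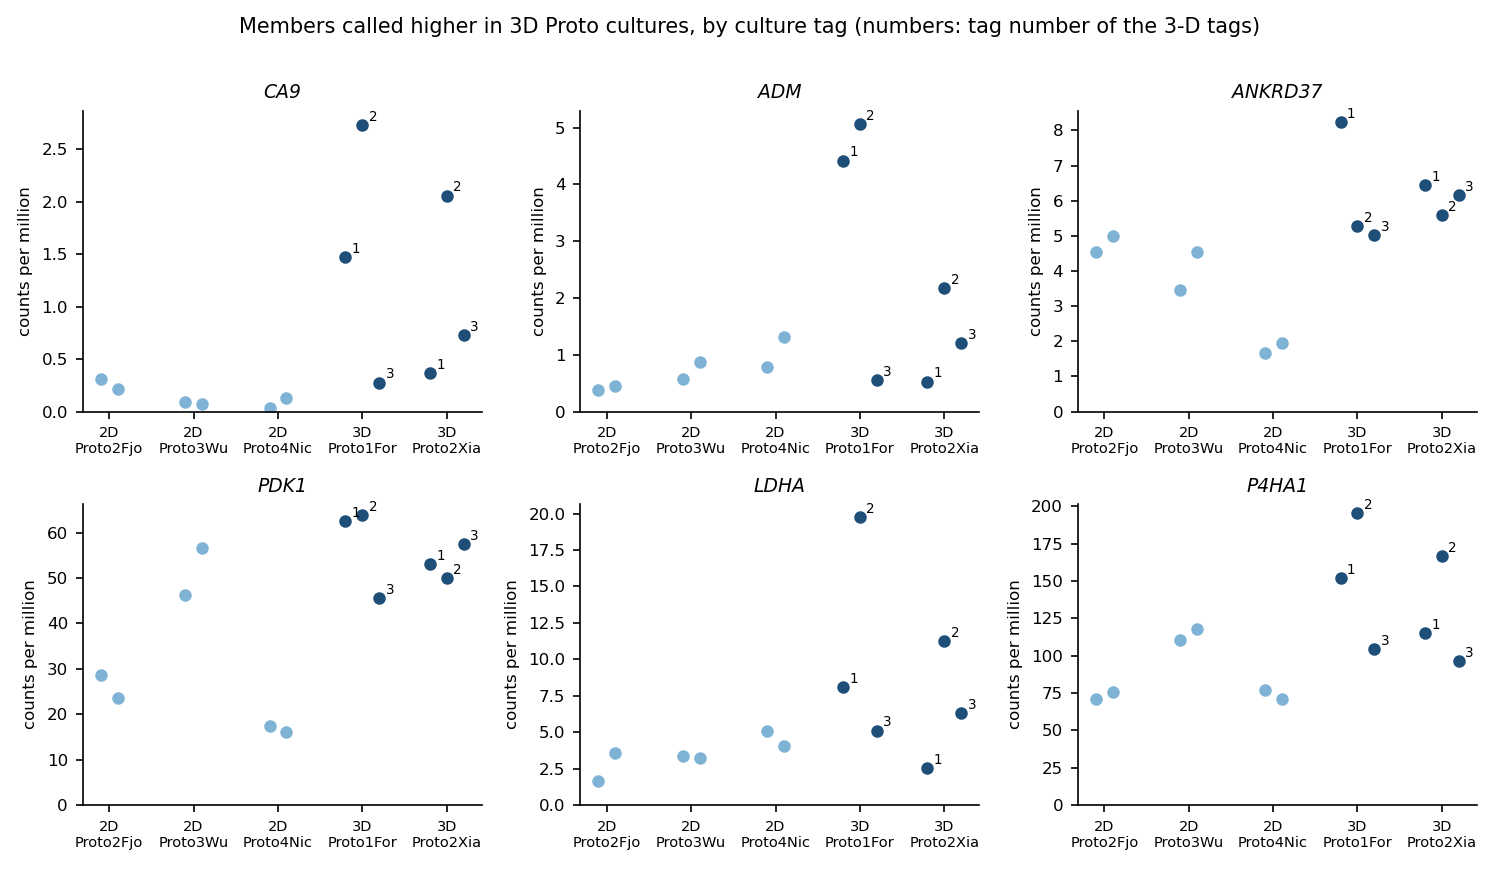
CPM of CA9, ADM, ANKRD37, PDK1, LDHA and P4HA1 (y axes) in each Proto tag by protocol (x axis); numbers beside 3-D points are tag numbers. CA9 is at 1.47, 2.74 and 2.06 CPM in tags 1 and 2 of 3DProto1For and tag 2 of 3DProto2Xia, and at 0.732 or below in the other tags.

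The count of members in this comparison rested on few tags. Leaving out 1 tag gave 5 to 15 members, while the share of all genes called also went from 13.2% to 25.3%: 5 without either tag of 2DProto3Wu, 6 without either tag of 2DProto2Fjo or tag 1 of 2DProto4Nic, and 7 without tag 2 of 2DProto4Nic or tag 1 of 3DProto1For. CA9, ANKRD37, PDK1, GPI and EGLN3 kept their call in each such fit, while ADM lost it in 6 of 12, LDHA in 10, VEGFA in 8, P4HA1 in 7 and PFKM in 6. Of the flux regulators, PFKFB3 lost it in 11 and PFKFB4 in 9. Without tag 3 of 3DProto1For and tag 2 of 3DProto2Xia, 16 members passed (29.7% of all genes), 15 of them higher. This fit was chosen after the make-up of the tags was seen. It leaves tags of more similar make-up within each 3-D protocol, and its p-values measure the spread between those tags. With the ribosomal share as covariate 15 passed (30.4%), 12 of them higher, among them CA9 (log2 2.72), ADM (1.21), PDK1 (0.88) and ANKRD37 (0.81).

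Of the other lists in the Proto tags, 6 of 26 other HIF targets rose and 1 fell (median log2 0.31), a share near the 24.3% of all genes called. Glycogen branching enzyme GBE1 went from 40.1 ± 8.76 CPM in 2-D to 79.2 ± 31.4 in 3-D and the collagen lysyl hydroxylase PLOD2 from 31.9 ± 9.37 to 56.6 ± 23.4 (SD, n = 6 each), while CA12 fell by 1.11. EPAS1, which encodes HIF-2 alpha, fell (log2 -1.49) and ARNT2 rose (0.93). Among other glycolysis genes 1 of 20 rose and 1 fell, and 1 of 23 citric acid cycle genes fell (FH, -0.65), shares below that of all genes. Of 7 pentose phosphate genes 2 fell (TKT, -0.68), a share near the 24.3% of all genes called.

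Within 3-D, 3DFusi was compared with 3DMono on the treatments they share, and no member passed in edgeR (0 of 36, against 1.48% of all genes). At an unadjusted p under 0.05 there were 6 (17.9% of all genes), and DESeq2 called 1, SLC2A3 (6.56%). With the tag number as a block, edgeR again called 0 (0.105%), with 22 at an unadjusted p under 0.05 (9.31%); the arrangements share only number 1, so that fit rests on 2 tags a side. SLC2A3 had 30.7 to 61.1 CPM in 6 tags of 3DFusi and 27.1 to 37.1 in 4 tags of 3DMono (log2 0.58 ± 0.18, edgeR adjusted p = 0.122), and LDHA had a log2 difference of 0.68. Without Vehic number 1 of 3DFusi 2 members passed, with 6.97% of all genes.

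Within 2-D, 2DCocu and 2DMono differed more. The lactate and angiogenesis genes LDHA and VEGFA and the stress gene NDRG1 were higher in 2DCocu, and HK1, HK2, SLC2A3, PKM and HIF1A lower. In edgeR 15 of the 35 members that passed the filter on low counts were called, 10 higher and 5 lower in 2DCocu, against 29.9% of all genes. ALDOC did not pass the filter.

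LDHA had 6.05, 7.49 and 9.23 CPM (lowest, median and highest of 8 tags) in 2DCocu, and 1.18, 2.69, 3.04 and 3.15 in the 4 tags of 2DMono (log2 1.46 ± 0.23, edgeR adjusted p = 0.00013). NDRG1 had 19.1, 24.4 and 29.6 CPM against 9.20 to 15.3 (log2 0.85 ± 0.15), and HK1 had 52.8, 59.5 and 69.7 against 77.4 to 121.7 (log2 -0.81 ± 0.09, edgeR adjusted p = 2.3e-06). These 3 genes did not overlap. VEGFA had a median of 152 CPM against 52.0 (log2 1.41 ± 0.27) with overlap at the lower end. Among fits without 1 tag, SLC2A3 (-0.71) and HK2 (-0.56) lost their call only without Vehic number 1 of 2DMono (edgeR adjusted p = 0.0549 and 0.0796). ENO2 (0.58) lost its call in 9 of 12 such fits, SLC16A3, a lactate exporter (0.45), in 8, PFKL (0.37) in 5 and HIF1A (-0.33) in 3. With the tag number as a block, HK2, PFKL, SLC16A3 and HIF1A did not pass (edgeR adjusted p = 0.0948, 0.0752, 0.0532 and 0.0552).

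The drug comparisons ask whether members respond to the treatment a tag names, against Vehic within each arrangement. Over all of them 1 member passed the test. The treatments of an arrangement share its Vehic tags. In 2DCocu the make-up differed too: neuron-like cells made up 27.7% to 38.1% of cells in the AcCoc tags, 27.2% to 30.9% in the AcMor tags and 5.31% to 11.7% in the Vehic tags, without overlap between treated and Vehic tags. Cells without a name made up 37.1% to 47.4% in the treated tags and 56.1% to 61.5% in the Vehic tags. Mesenchymal-like cells made up 2.56% to 4.91% under AcCoc, 4.64% to 7.69% under AcMor and 5.52% to 11.4% under Vehic. In 2DCocu with AcCoc, P4HA2 had 26.3, 25.3, 20.6 and 30.02 CPM in the 4 AcCoc tags and 40.02, 35.9, 39.4 and 32.4 in the 4 Vehic tags. The groups did not overlap, and the log2 difference was -0.50 ± 0.14 (edgeR adjusted p = 0.0478). In 2DCocu P4HA2 had 10.01 ± 3.47 CPM in excitatory neuron-like cells, 54.8 ± 13.0 in astrocyte-like cells (SD, n = 12 each) and 86.7 ± 14.3 in mesenchymal-like cells (n = 11), and the part of the make-up in its difference was not tested. It was the 1 member called among 35 tested, against 6.09% of all genes, and 8 of 12 fits without 1 tag lost it (edgeR adjusted p up to 0.15). Those were the fits without AcCoc number 1, 2 or 3, AcMor number 3 or 4, or Vehic number 1, 2 or 3, and without Vehic number 4 the count was 3 members, with 6.34% of all genes. With the tag number as a block and in 1 fit over the 4 arrangements P4HA2 did not pass (edgeR adjusted p = 0.0778 and 0.569 for P4HA2, AcCoc against Vehic in 2DCocu). PFKP missed the threshold with 95.3, 85.4, 91.0 and 103 CPM under AcCoc against 145.1, 125, 132 and 98.0 (log2 -0.38 ± 0.11, edgeR adjusted p = 0.0554), and Vehic number 4 lay within the AcCoc range.

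With AcMor in 2DCocu, 0 of 35 members passed in edgeR (0.97% of all genes), 8 had an unadjusted p under 0.05 (14.4%) and DESeq2 called 2, EGLN3 and PFKP (3.3%). EGLN3 had 41, 45.1, 44.7 and 40.4 CPM under AcMor and 52.3, 58.1, 53.9 and 56.5 under Vehic, without overlap (log2 -0.33 ± 0.09, edgeR adjusted p = 0.0956). Its level was 28.8 ± 5.86 CPM in excitatory neuron-like, 59.6 ± 13.3 in astrocyte-like and 81.4 ± 16.6 in intermediate progenitor-like cells of 2DCocu (SD, n = 12), and the part of the share of neuron-like cells was not tested here either. P4HA2 under AcMor, at 28.7, 44.0, 33.8 and 35.1 CPM, spanned the Vehic range. Without Vehic number 4, 1 member passed, with 1.32% of all genes.

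In 3DFusi, AcCoc and AcMor gave 0 of 36 members each in edgeR (0% and 0% of all genes), 0 at an unadjusted p under 0.05 (1.66% and 0.748%) and 0 in DESeq2. These fits ignore the tag number, although same-numbered tags of 3DFusi deviated together (correlation over 0.1 in 9 of 9 pairs). With the number as a block no member passed either. In those edgeR fits 4.26% and 4.27% of all genes had an unadjusted p under 0.05. In 2DMono, where each group has 2 tags, AcDop and AcMor gave 0 of the 34 members that passed the filter (0% and 0%), 2 and 3 at an unadjusted p under 0.05 (2.42% and 6.42%), and 0 in DESeq2. In 3DMono, AcDop and AcMor gave 0 of 36 (0% and 0%), 1 and 0 at an unadjusted p under 0.05 (3.35% and 8.71%), and 0 in DESeq2. The lowest unadjusted values included LDHA in 2DMono, at 1.28 and 1.27 CPM with AcDop against 3.04 and 2.69 with Vehic (log2 -1.20), and ENO2, at 19.3 and 20.4 against 14.5 and 11.1 (0.62). A p that misses the threshold does not show that the treatments left the genes unchanged.

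Levels by cell type were compared in clusters built without the 36 members and named from markers. In neuron-like cells HK2 was far lower in 3DMono and 3DFusi than in 2DMono and 2DCocu, and HIF1A was lower too. The enzymes TPI1, ALDOA, GAPDH, PGAM1, GPI, PKM and ENO2 were higher in neuron-like cells of both 3-D arrangements. In edgeR, 16 of the 33 members that passed the filter in 3DMono against 2DMono were called (30.4% of all genes), 13 higher and 3 lower. In 3DFusi against 2DCocu it was 19 of 31 (44.4%), 9 higher and 10 lower.

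In neuron-like cells HK2 had 3.88, 8.02 and 14.8 CPM in 3DMono and 54, 64.0 and 83.6 in 2DMono (log2 -2.98 ± 0.30, edgeR adjusted p = 8.36e-06). In 3DFusi it had 1.64, 4.17 and 9.75 CPM, against 46.8, 64.8 and 107 in 2DCocu (log2 -3.86 ± 0.22, edgeR adjusted p = 1.33e-12). No 3-D tag came near the 2-D range in either pair. ENO2 had 20.2, 34.0 and 47.0 CPM in 3DMono against 9.79, 15.8 and 19.3 in 2DMono (log2 0.96 ± 0.21), without overlap, and a median of 36.5 against 18.1 in 3DFusi against 2DCocu (1.00 ± 0.20), with overlap. TPI1 rose by 1.51 ± 0.26 and 1.12 ± 0.22. HIF1A fell by 0.59 and by 0.67.

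Other genes passed in 1 pair of arrangements, and the difference between the pairs was not tested within neuron-like cells. NDRG1 (-1.51 ± 0.39), VEGFA (-1.35 ± 0.30) and P4HA2 (-1.12 ± 0.22) fell in neuron-like cells of 3DFusi against 2DCocu. GABAergic neuron-like cells were 0.129% to 1.89% of all cells in the 2DCocu tags and 2.48% to 32.4% in the 3DFusi tags. Their part in these falls was not tested. DDIT4 (1.76 ± 0.41), PFKL (0.81 ± 0.25) and PDK1 (0.77 ± 0.21) rose in neuron-like cells of 3DMono against 2DMono. DDIT4 did not pass the filter on low counts in the other pair. In 3DMono against 2DMono, leaving out 1 tag removed the calls of PGAM1 (8 of 12 fits), GPI (3) and PFKM (3). It also removed those of ALDOA (2), GAPDH (2) and PFKL (1). In the other pair it removed those of PFKM (9 of 22) and P4HA1 (7).

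With the ribosomal share as covariate, 2 members passed in neuron-like cells of 3DMono against 2DMono (9.78% of all genes), HK2 (log2 -4.06) and P4HA1 (0.63), while GAPDH (-0.26) and PGAM1 (-0.30) changed sign. In 3DFusi against 2DCocu 12 passed (20.9%), among them HK2 (-3.49), NDRG1 (-2.96), ENO2 (1.15), PGAM1 (0.87) and PKM (0.85). Different clusters held the neuron-like cells of the formats. Cluster 0, an excitatory one, held 74.8% of them in 2DCocu and 47.2% in 2DMono, excitatory cluster 1 held 60.4% in 3DMono, and GABAergic cluster 3 held 48.6% in 3DFusi.

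HK2 stood out between classes as well as between the formats of the treated arrangements. In 2DMono excitatory neuron-like cells had 81.8 ± 19.1 CPM of HK2 (SD, n = 6 tags), intermediate progenitor-like cells 56.1 ± 14.9, cycling cells 34.6 ± 8.70, GABAergic neuron-like cells 19.2 ± 5.94 and astrocyte-like cells 17.9 ± 7.92 (n = 5). Neighbours in this order overlap within their SD, except cycling cells and GABAergic neuron-like cells. In 3DMono excitatory neuron-like cells had 8.13 ± 3.97 and GABAergic ones 8.75 ± 7.57, below progenitor-like cells at 17.1 ± 7.23, and all classes overlapped within their SD. The excitatory class had 73.0 ± 17.3 CPM in 2DCocu (n = 12) and 5.06 ± 3.15 in 3DFusi (n = 10). HK1 did not share this: excitatory neuron-like cells had 55.5 ± 8.94 CPM in 2DMono and 56.0 ± 8.48 in 3DMono, whereas cycling cells had 119.4 ± 18.3 and 35.9 ± 4.22.

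The other isoenzymes differed in how their levels were spread over the classes. In 2DMono ENO1 had 18.5 ± 4.57 CPM in excitatory neuron-like cells and 108.2 ± 34.6 in cycling cells, and in 3DMono 24.2 ± 11.8 against 70.6 ± 31.7 in progenitor-like cells. ENO2 had 15.2 ± 2.73 and 15.4 ± 4.49 CPM in those 2 classes of 2DMono and 29.1 ± 11 in astrocyte-like cells (n = 5), and 32.5 ± 8.98 against 28.0 ± 9.26 in those of 3DMono. SLC2A1 had 52.0 ± 19.0 CPM in cycling cells and 10.9 ± 3.65 in excitatory neuron-like cells of 2DMono. SLC2A3 had 71.4 ± 15.1 CPM in progenitor-like and 72.4 ± 12.8 in mesenchymal-like cells of 3DMono, and 21.7 ± 5.66 in excitatory neuron-like cells. Excitatory neuron-like cells of 2DMono had 31.4 ± 8.05. Over neuron-like cells together, SLC2A3 was called in 3DMono against 2DMono. It was not called in those of 3DFusi against 2DCocu, where it rose over all cells. PFKP had 149.7 ± 20.4 CPM in astrocyte-like cells of 2DMono (n = 5) and 51.0 ± 11.5 in excitatory neuron-like cells, whereas PFKM had 16.7 ± 1.45 and 20.2 ± 3.97. PFKL had 24.6 ± 5.34 and 10.8 ± 3.09 in the same classes. ALDOC was near 0 in every class of 2DMono and at 2.21 ± 1.81 in progenitor-like cells of 3DMono, where ALDOA had 14.8 ± 9.43.

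**Figure D5:**
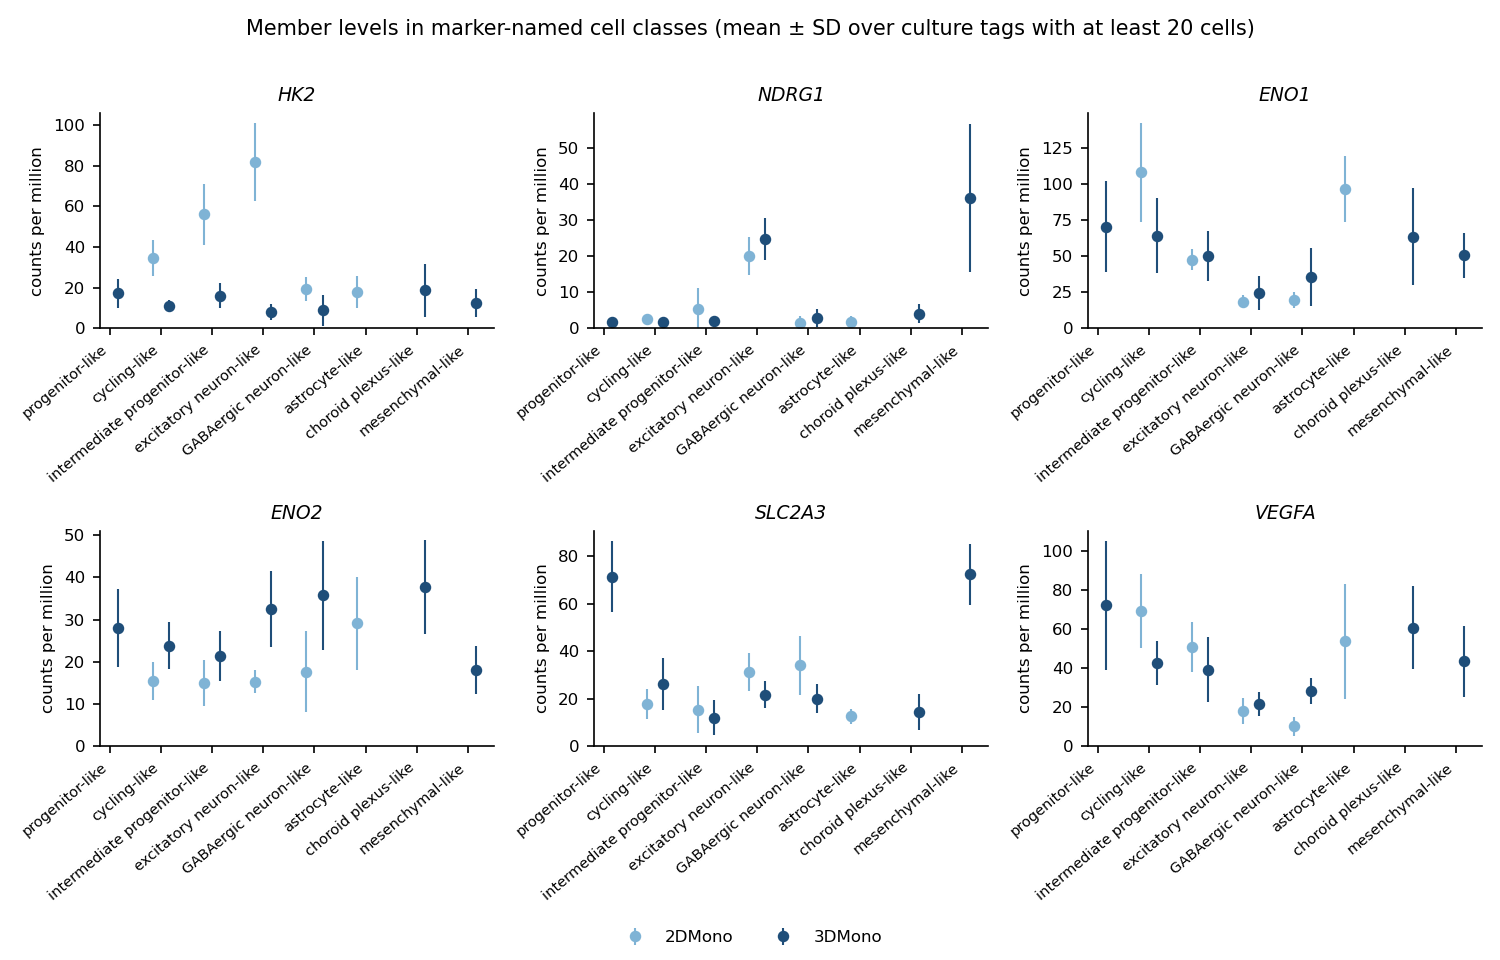
Mean CPM of HK2, NDRG1, ENO1, ENO2, SLC2A3 and VEGFA (y axes) by marker-named class (x axis) in 2DMono and 3DMono, with bars of 1 SD over tags holding at least 20 cells of the class. HK2 is at 81.8 CPM in excitatory neuron-like cells of 2DMono and at 8.13 in those of 3DMono.

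Within the same 3-D tags, neuron-like cells were set against progenitor-like or cycling cells. More members were lower than higher in neuron-like cells, and NDRG1 had the largest rise. In 3DMono 28 of the 34 members that passed the filter were called by edgeR (58.5% of all genes), 9 higher and 19 lower in neuron-like cells, with a median log2 of -0.44 over these members and -0.01 over all genes. In 3DFusi 22 of 34 were called (53.2%), 9 higher and 13 lower. Without TMM it was 6 higher and 16 lower there (53.5% of all genes). The clusters were formed from variable genes without the members and were then named from markers. Those genes may vary with the members, so the p-values are not independent of how the clusters were formed.

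NDRG1 had 17.7 ± 6.99 CPM in neuron-like and 1.71 ± 1.03 in progenitor-like or cycling cells of 3DMono (SD, n = 6), and was higher in 6 of 6 tags (log2 3.59 ± 0.29, edgeR adjusted p = 6.75e-07). By class it had 24.8 ± 5.88 CPM in excitatory and 2.75 ± 2.52 in GABAergic neuron-like cells, next to 1.81 ± 1.18 in progenitor-like and 1.63 ± 1.196 in cycling cells. In 3DFusi it was higher in 8 of 10 tags (2.59 ± 0.53), with 21.6 ± 14.3 CPM in excitatory and 1.57 ± 1.61 in GABAergic neuron-like cells (n = 10). Excitatory neuron-like cells of 2DCocu had 35.3 ± 8.53 CPM of NDRG1 (n = 12), which overlaps those of 3DFusi within the SD. PFKM (0.77 and 0.71), GPI (0.64 and 0.67) and ENO2 (0.45 and 0.74) were higher in both arrangements as well. VEGFA was lower in neuron-like cells in each of 6 and each of 10 tags (-1.13 and -0.95), as were SLC2A3 (-1.04 and -1.06), ENO1 (-1.19 and -1.14), GAPDH (-1.32 and -0.86) and the oxygen sensor EGLN3 (-0.97 and -0.81). HIF1A had 43.9 to 57.4 CPM in neuron-like and 67.2 to 82.9 in progenitor-like or cycling cells of 3DMono, without overlap (log2 -0.53 ± 0.08).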

How the data were processed

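The deposited matrix holds the authors' estimated counts per gene and cell, and the submitters' processing notes name Salmon 1.7.0, alevin, Seurat 4.1.1 and hg38, with no role or order. No source used here names the gene annotation, the cell filters or the use of strand, so reads of a gene and of an antisense partner cannot be told apart. Of the nonzero entries 54.3% were whole and 13.5% were below 1. The lowest number of genes in a cell was 1006 and the median total per cell was 12776. Totals per tag were 4693413 to 58777178 in 2DMono, 10023410 to 49119283 in 3DMono, 5759439 to 20104217 in 2DCocu, 4479874 to 37914698 in 3DFusi and 3624668 to 46450493 in the Proto tags. Precision is lowest for the members with the fewest counts in all, ALDOC (579), CA9 (603), ADM (1728), ANKRD37 (2699) and LDHA (3948).

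No cell was removed. Counts were summed per tag, or per tag and class with at least 20 cells, rounded to whole numbers and tested in R 4.3.3 with edgeR 4.0.16 (filterByExpr, TMM, robust quasi-likelihood fit, Benjamini-Hochberg adjusted p of 0.05 over all genes tested). Format comparisons had treatment as covariate where both arrangements carry treatments. The Proto fit had a coefficient per protocol and set the mean of the 3-D protocols against that of the 2-D protocols. The fits of 3DFusi against 3DMono, 2DCocu against 2DMono and the interaction used Vehic and AcMor tags only. DESeq2 1.42.0, other scalings and filters, a replicate block and leaving out each tag were alternatives. CPM in the text are per 1000000 counts of a tag or class.

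Classes came from clusters in Python 3.11.15 (scikit-learn 1.9.0, leidenalg 0.10.2 at resolution 0.8) over 2000 variable genes without the members, of which 4 had been among them, with 30 principal components and 20 neighbours. A cluster was named where at least 3 markers and 40% of a list were each in at least 10% of its cells and at least 2-fold higher. A doublet score marked 1271 cells (2.91%), which stayed in, with 33.2% of simulated doublets above the threshold of 0.73. In all, 2393 barcode combinations occurred in more than 1 sublibrary (4894 cells) and 0 more than once in one sublibrary.

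The rule for names took up to 8 called members per direction with the largest change, fixed isoenzyme pairs by class, and up to 3 called genes per other list and comparison, of which the text gives a selection. Members named beyond the rule (those that did not pass, and called ones with smaller changes) were chosen after their values were seen. Members and lists were chosen with earlier results of these data known. Same-numbered tags deviated together in 3DFusi (correlation over 0.1 in 9 of 9 pairs) and in 3DMono, where all 6 pairs were positive (0.083 to 0.302) but 4 of 6 passed 0.1, short of the rule that every pair must. In 2DCocu 2 of 12 and in 2DMono 2 of 6 passed. With 2 tags per treatment, as in 3DMono and 2DMono, deviations from the treatment mean are mirror images. Each correlation there is counted for 2 pairs, so the 6 pairs are not independent. The tests were checked on simulated data, and 0 columns of per-sample values were left unused. Promoter windows were given for 32 members, and protein sequences were not used here.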

Additional observations from a re-analysis of the deposited data

Results flagged for a closer look

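In 7 of 144 combinations of a member and a group of 4 tags, 1 tag lay far from the other 3, where chance gives about 1 in 20. SLC2A3 was low in AcCoc number 1 of 2DCocu (14.3 CPM against 18.2 to 18.9) and high in AcMor number 4 (24.7 against 17 to 18.3), and P4HA1 was low in that AcMor tag (54.5 against 69.9 to 72.8). BNIP3 was low in AcCoc number 1 of 2DCocu (21.2 against 25.3 to 26), and SLC2A1 in Vehic number 4 (21.9 against 35.3 to 37.3). In 3DFusi BNIP3L was low in AcCoc number 2 (59 against 80.9 to 82.8) and KDM3A, a histone demethylase, high in AcCoc number 4 (101 against 88.2 to 90).

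The format effect differed between the pairs of arrangements, by the test of the interaction, for HK1 (log2 0.81), SLC2A3 (1.32), PDK1 (-1.11) and DDIT4 (-1.66). These are 4 of 36 members, against 9.98% of all genes, and PDK1 and DDIT4 lost the call in 8 and 14 of 22 fits without 1 tag.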

How the results depend on the processing

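Of 118 results for single genes, 94 kept their call in every fit without 1 tag and 70 under every other alternative, counting only fits that tested the gene. ALDOC was tested in 20 of 22 fits without 1 tag in 3DFusi against 2DCocu. For neuron-like against progenitor-like or cycling cells, ALDOC was tested in 4 of 6 such fits in 3DMono and ADM in 5 of 10 in 3DFusi. With the share of ribosomal protein genes as covariate, chosen after seeing the data, 4 changed sign: BNIP3 in 3DMono against 2DMono (-0.041), GAPDH in 3DFusi against 2DCocu (-0.27), and GAPDH (-0.26) and PGAM1 (-0.30) in neuron-like cells of 3DMono against 2DMono. That covariate gave 11 members called in 3DMono against 2DMono, 10 in 3DFusi against 2DCocu, 2 in neuron-like cells of the first pair and 12 in those of the second; the cause was not tested. Vehic tags alone gave 9 in 3DMono against 2DMono, with fewer samples. For AcCoc in 2DCocu, 0 members were called in 1 fit over the 4 arrangements and with the replicate block, and 2 with DESeq2, its size factors, no TMM, no filter or no doublets. DESeq2 called 1 in 3DFusi against 3DMono and 2 for AcMor in 2DCocu, and the interaction had 2 without the filter. Leaving out each tag gave 17 to 23 members (7188 to 8307 of all genes) in 3DMono against 2DMono, 16 to 19 (10480 to 11365) in 3DFusi against 2DCocu, 5 to 15 (3546 to 6408) in the Proto tags, 0 to 2 (68 to 1564) in 3DFusi against 3DMono, 10 to 17 (4722 to 6696) in 2DCocu against 2DMono, 0 to 3 (407 to 1431) for AcCoc and 0 to 1 (27 to 284) for AcMor in 2DCocu, 0 to 0 for the other treatments, 12 to 18 (4188 to 5644) and 17 to 20 (6261 to 6762) in neuron-like cells of the 2 pairs, 24 to 30 (9224 to 10480) and 19 to 24 (8489 to 9354) against progenitor-like or cycling cells, and 2 to 6 (1613 to 2789) for the interaction. With the replicate number as a block, 21 members were called in 3DMono against 2DMono (39.8% of all genes), 17 in 3DFusi against 2DCocu (46.6%), 12 in 2DCocu against 2DMono (22.7%) and 0 in each treatment contrast. Depth limits ALDOC and CA9 most, with 579 and 603 counts in all.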
